A study of Mus musculus with 15 samples.

Results

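The genes of the lysosome and of autophagy were followed in GL261, an established mouse glioma line, in RNA-seq libraries of 5 groups with 3 libraries each. The set holds 44 of the 34259 genes in the count table: proteases, other hydrolases, activators and membrane proteins, proton pump subunits, transcription factors and autophagy proteins. They were named by symbol and matched to Ensembl identifiers, and all 44 were found. The gel groups, D-gel@GSNP, then L-gel@GSNP, then D-gel@NP, were Hoechst-CD133+ cells that spent 20 min on ice in lyophilised chiral hydrogels and were then kept with a cytokine cocktail. The PBS group was Hoechst-CD133+ cells kept with PBS and the same cocktail, with no ice step named. The non-SP group was untreated GL261 cells. All groups were wild type by label, had new medium on days 2 and 4 and were sampled at Day 6, and all libraries carry the same batch label. The sources used here do not say what GSNP and NP stand for, or whether replicates were separate cultures. The p-values therefore measure the spread between these libraries, which may be technical. PBS and non-SP differ in cell population and cytokines together. A hydrogel group and PBS differ together in gel, in the GSNP or NP of the label and in ice step. The parts of each difference cannot be told apart.

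Lysosomes are acidic compartments in which hydrolases break down proteins, glycans and lipids delivered by endocytosis or by autophagosomes. The vacuolar proton pump acidifies them, and membrane glycoproteins such as Lamp1 and Lamp2 line them. The transcription factors TFEB, TFE3 and MITF bind the CLEAR element, an extended CACGTG box in promoters of many lysosomal genes, and are held in the cytoplasm by phosphorylation when nutrients are plentiful. In gliomas, cathepsins are known as proteases that also act outside the cell, and GPNMB as a glycoprotein of tumour cells and of tumour macrophages.

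The promoters of the members were searched for this box on both strands. RefSeq promoter windows (build GRCm38.p6, 250 bases before to 50 after each gene's start) were found for 40 of the 44 members. CACGTG was present in 11 of the 40 members, beside 8.09% of 27025 genes with a window. TCACGTG, which contains CACGTG, was present in 10 of 40, beside 4.29% of all genes, and the related TCATGTG in 6 of 40, beside 4.31%. The stretches below show the 100 bases before the start of 4 members whose windows hold TCACGTG, chosen to cover a membrane glycoprotein, a channel, a protease and a glycosidase, with each CACGTG in capitals.
Lamp1, chr8:13159061-13159160, plus strand: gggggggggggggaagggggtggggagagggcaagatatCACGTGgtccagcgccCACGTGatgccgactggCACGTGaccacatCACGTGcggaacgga
Mcoln1, chr8:3500419-3500518, plus strand: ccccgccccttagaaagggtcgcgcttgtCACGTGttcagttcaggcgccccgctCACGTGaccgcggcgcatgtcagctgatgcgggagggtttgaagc
Ctsd, chr7:142387828-142387927, minus strand: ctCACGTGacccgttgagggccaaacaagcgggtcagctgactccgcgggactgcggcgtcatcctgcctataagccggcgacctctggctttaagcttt
Naglu, chr11:101069994-101070093, plus strand: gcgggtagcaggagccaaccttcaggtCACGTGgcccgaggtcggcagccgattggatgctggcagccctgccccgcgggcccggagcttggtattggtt
The Lamp1 stretch holds 4 copies of CACGTG, that of Mcoln1 holds 2, and those of Ctsd and Naglu hold 1 each. A match of letters is a description and says nothing about which factor was bound. The box is known from promoters of lysosomal genes, so its share among members does not bear on their differences between groups.

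Levels are given as CPM, the usual depth-scaled read count, computed from the deposited counts with library sizes scaled by TMM factors, and group values are means ± SD over 3 libraries. Of the 44 members, 40 passed the filter on low counts and were tested, and 39 of these had at least 1 CPM in every library. The exception was Mitf, with a lowest value of 0.896 CPM, so no member passed through a single high group. The 4 members not tested were the protease genes Ctsc, Ctsk and Ctss and the galactosylceramidase gene Galc. Ctss, typical of phagocytes, had 0, 14, 6, 8 and 1 counts summed over the libraries of the 3 gel groups in the order named above, of PBS and of non-SP. No library exceeded 0.186 CPM for any of these 4 genes.

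Per unit of length, as deposited FPKM, the most abundant member in PBS was Ctsz, the protease cathepsin Z, at 332 ± 13.7 FPKM, followed by Lamp1 at 318 ± 8.40 FPKM, whose SDs overlap. Psap, the precursor of the saposins that help degrade sphingolipids, followed at 249 ± 16.3 FPKM, and the tetraspanin Cd63 at 222 ± 22.7 FPKM. In D-gel@NP the order at the top was different, with Lamp1 at 246 ± 3.69, the autophagy receptor Sqstm1 at 239 ± 5.14, Ctsz at 235 ± 9.45 and Psap at 227 ± 8.23 FPKM, and each neighbour in that order lay within the summed SDs of the next. Ctsd, the aspartic protease cathepsin D, stood 10th among the 44 members in D-gel@GSNP, at 43.9 ± 1.05 FPKM, 6th in PBS, at 183 ± 14.6 FPKM, and 10th in non-SP, at 43.7 ± 1.12 FPKM. The summed CPM of all 44 members was 6022 ± 160.1 with D-gel@GSNP, 7050 ± 52.5 with L-gel@GSNP, 8832 ± 89.9 with D-gel@NP, 10397 ± 339 in PBS and 5776 ± 45.8 in non-SP. The sums of the 5 groups did not overlap between libraries, and PBS stood highest. The heat map by library shows that single members did not all follow this order.

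**Figure D1:**
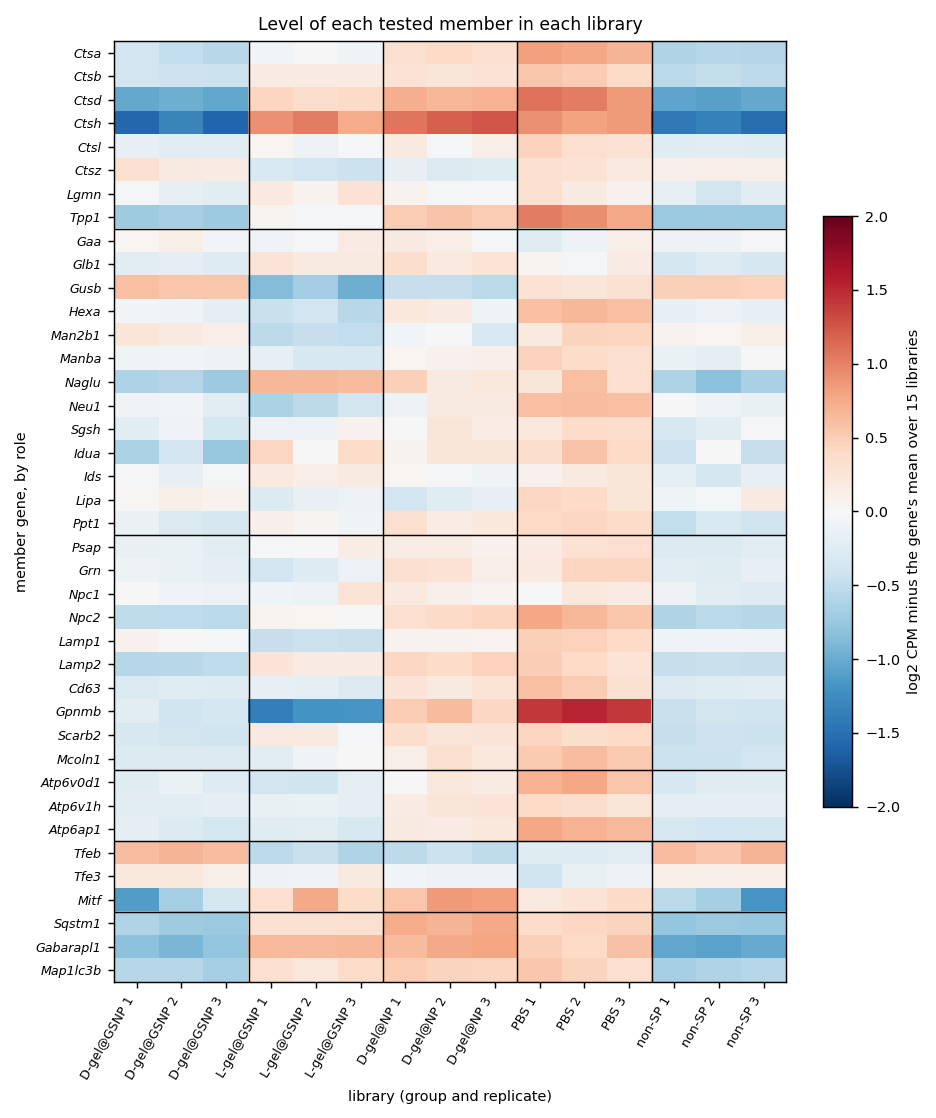
Level of the 40 tested members (rows, grouped by role, lines between roles) in each of the 15 libraries (columns, lines between groups), as log2 CPM minus the gene's own mean, red above and blue below it. D-gel@GSNP and non-SP libraries share the low pattern for most members and the high pattern for Gusb, Tfeb and Tfe3, and Gpnmb stands highest in PBS and lowest in L-gel@GSNP.

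Across all genes the D-gel@GSNP libraries stood close to the untreated non-SP libraries, as detailed with that comparison. Library totals ranged from 16.6 M to 98.1 M counts. The share of counts from mitochondrial genes averaged 3.00% with D-gel@GSNP, 4.50% with L-gel@GSNP, 4.63% with D-gel@NP, 5.97% in PBS and 2.86% in non-SP, so it moved with the members' sum. Summed markers of macrophages and microglia (14 of 18 listed genes in the table) spanned 22.9 to 23.5 CPM with D-gel@GSNP, 59.7 to 63.3 with L-gel@GSNP, 57.4 to 66.7 with D-gel@NP, 92.5 to 103.7 in PBS and 21.8 to 23.0 in non-SP. Most of that sum came from Cd68, Csf1r and Cd14, while Tyrobp had no counts in L-gel@GSNP, PBS and non-SP and 2 counts each in D-gel@GSNP and D-gel@NP. The part of these markers and of the mitochondrial share in the results was not tested. Of markers of glioma and glial cells, Vim and Cd44 were abundant, at 1118 ± 42.9 and 1156 ± 48.0 CPM in PBS. Egfr and Pdgfra were at 82.2 ± 7.11 and 50.5 ± 0.172 CPM in PBS. These genes had their highest means in PBS. Nes had its lowest mean there, at 3.38 ± 0.221, 2.07 ± 0.105, 1.57 ± 0.376, 1.24 ± 0.530 and 3.70 ± 0.152 CPM in the same order of groups. S100b reached at most 1.19 CPM in any library. Olig2, Gfap and Prom1 reached at most 0.307 CPM in any library, and Prom1 encodes the CD133 named in the labels. In the fibroblast list Dcn made up nearly all of the sum, at 650.3 ± 9.25, 1372 ± 81.5, 1457 ± 32.7, 1285 ± 40.3 and 662 ± 14.6 CPM in the same order of groups, whereas Col1a1 ran the other way, at 14.4 ± 0.615, 3.06 ± 1.81, 1.44 ± 0.149, 1.58 ± 1.45 and 13.4 ± 1.31 CPM. The part of this list in the results was not tested. The endothelial and lymphocyte sums reached at most 18.9 and 0.648 CPM, with their highest means in PBS.

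Nearly all members were higher in PBS, the cytokine-treated Hoechst-CD133+ cells without a gel, than in untreated non-SP cells. The protease genes Ctsh and Ctsd stood out, at 4.88-fold higher and 4.13-fold higher in PBS, and the autophagy genes Gabarapl1, Sqstm1 and Map1lc3b were 2.89-fold higher, 2.24-fold higher and 2.08-fold higher. The genes of the transcription factors TFEB and TFE3 went the other way. A gene counted as higher or lower where edgeR's quasi-likelihood test gave it an adjusted p (Benjamini-Hochberg, over all 17497 genes tested) under 0.05. On this basis 36 members were higher, 3 lower and 1 not called, beside 27.6% of all genes higher and 26.1% lower. The median log2 difference was 0.72 over the 40 tested members and 0.019 over all genes. In bulk RNA, a change in the share of a cell type and a change in RNA per cell cannot be told apart.

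All 8 tested proteases were higher in PBS than in non-SP. Ctsh (ENSMUSG00000032359), which encodes the aminopeptidase cathepsin H, had 124, 115 and 119.5 CPM in PBS, against 24.5, 25.8 and 23.2 CPM in non-SP. Ctsd (ENSMUSG00000007891) had 455, 439 and 387 CPM in PBS, against 103, 101 and 106 CPM in non-SP. For both genes every PBS library lay far above every non-SP library, with log2 differences of 2.29 ± 0.079 and 2.05 ± 0.054 (model SE). Tpp1, which encodes a tripeptidyl peptidase lost in a childhood neuronal storage disease, had 376, 354 and 314 CPM in PBS and 111, 112 and 112 CPM in non-SP, and Ctsa, a carboxypeptidase that also protects partner hydrolases, was 2.54-fold higher. The smallest called difference was that of Ctsz, at 476 ± 20.9 CPM in PBS and 427 ± 4.78 CPM in non-SP, and without PBS replicate 1 it was no longer called (log2 0.13, edgeR adjusted p = 0.052). Ctsd shares 34.4% of its exon bases with Gm49369 on the same strand in the GENCODE annotation used for symbols, and Ctsb 12.8% with Fdft1 on the other strand. The strand setting of the counting is not given in the sources used here, so reads from the overlap of Ctsb with Fdft1 cannot be told apart. No strand setting would separate reads of Ctsd from those of Gm49369, which was not in the count table.

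Of the 13 tested glycosidases, sulfatases and lipid hydrolases, 11 were higher in PBS, 1 was lower and 1 was not called. Naglu, an enzyme of heparan sulfate breakdown, was among the least abundant, at 10.1, 12.9 and 10.8 CPM in PBS and 5.58, 4.84 and 5.42 CPM in non-SP, and was 2.13-fold higher. The lower one was Gusb, which encodes beta-glucuronidase, with 76.3, 74.0 and 76.7 CPM in PBS against 86.6, 87.0 and 85.5 CPM in non-SP. The PBS and non-SP libraries of Gusb did not overlap, although the difference was small (1.14-fold lower, edgeR adjusted p = 0.008). Gaa, the acid glucosidase that degrades glycogen, had 71.6, 78.8 and 92.4 CPM in PBS and 78.7, 78.2 and 82.1 CPM in non-SP, and the groups overlapped. Its log2 difference of 0.022 had a 95% interval of -0.15 to 0.19.

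All 10 activators, lipid carriers and membrane proteins were higher in PBS than in non-SP. Gpnmb (ENSMUSG00000029816), the glycoprotein named above, had 789, 848 and 786 CPM in PBS, against 216, 229 and 223 CPM in non-SP, a difference of 1.86 ± 0.062 on the log2 scale. Npc2, which hands cholesterol to the membrane protein Npc1, was at 302 ± 23.8 CPM in PBS and 128 ± 2.90 CPM in non-SP. Npc1 itself differed far less, at 43.2 ± 3.47 and 34.7 ± 1.97 CPM in the same order. The calcium channel gene Mcoln1 was 1.97-fold higher, Lamp2 1.80-fold higher and Lamp1 1.43-fold higher. All 3 proton pump genes were higher too, from Atp6v1h (1.43-fold higher) to Atp6ap1, an accessory subunit, which had 442, 418 and 401 CPM in PBS and 205, 198 and 199 CPM in non-SP.

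The autophagy genes moved with the hydrolases. Gabarapl1, whose protein is conjugated to autophagosome membranes, had 170.0, 162 and 184 CPM in PBS, against 59.2, 58.4 and 61.0 CPM in non-SP. Sqstm1, which encodes the cargo receptor p62, had 619, 644 and 653 CPM in PBS, against 283, 287 and 285 CPM in non-SP. Map1lc3b, the gene of the autophagosome marker LC3B, had 315, 295 and 274 CPM in PBS, against 137, 143 and 146 CPM in non-SP. None of the 3 genes had overlapping groups. Gabarapl1 shares 28.3% of its exon bases with 1700101I11Rik and Sqstm1 17.3% with Mrnip, both on the other strand and at most 0.894 and 5.12 CPM in any library.

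The transcription factor genes split. Tfeb (ENSMUSG00000023990) had 11.6, 11.6 and 11.8 CPM in PBS, against 21.3, 20.0 and 22.3 CPM in non-SP, 1.81-fold lower (log2 -0.86 ± 0.080, edgeR adjusted p = 5.4e-09). Tfe3 had 35.5, 42.2 and 43.2 CPM in PBS, against 50.9, 50.1 and 50.9 CPM in non-SP, 1.26-fold lower. Mitf was the least abundant tested member by FPKM and was higher in PBS, with 2.33, 2.44 and 2.63 CPM, against 1.39, 1.28 and 0.896 CPM in non-SP. Tfeb mRNA was lower in PBS, where most lysosomal genes were higher. These are mRNA levels, and the activity of these factors, which depends on phosphorylation, was not measured. Among members with a promoter window, the median log2 difference was 0.73 for 10 tested members whose windows hold TCACGTG, with a range of 0.022 to 2.05, and 0.72 for 26 whose windows do not, with a range of -0.86 to 1.86.

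**Figure D2:**
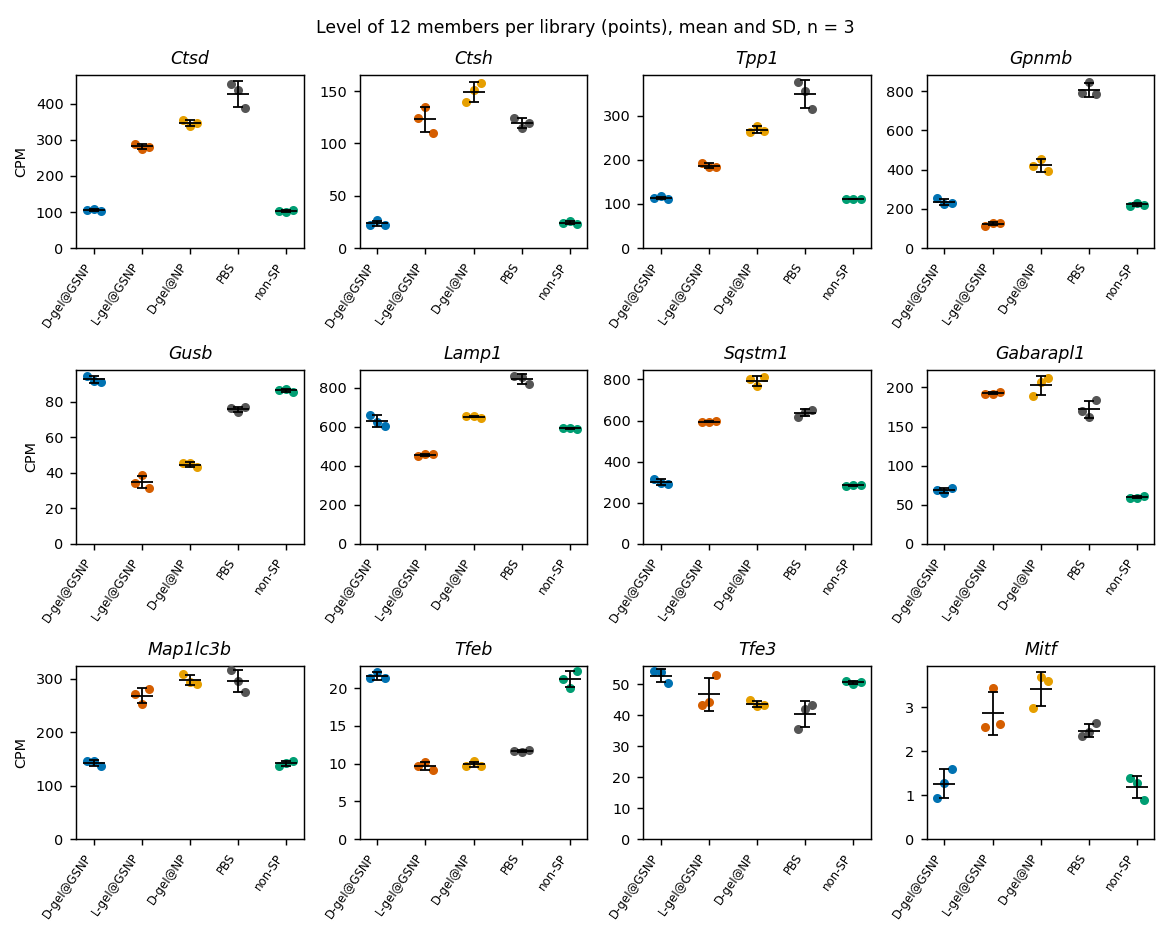
CPM of 12 members in each library (points), with the group mean and SD over 3 libraries (bars), on linear axes that start at 0. Ctsd, Tpp1 and Gpnmb stand highest in PBS, Ctsh and Sqstm1 highest in D-gel@NP, and Tfeb stands at 20.0 CPM or above in every D-gel@GSNP and non-SP library and at 11.8 CPM or below in all others.

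The levels of D-gel@GSNP cells were close to those of non-SP cells, and most members were lower than in PBS. Against PBS, 33 members were lower, 3 higher and 4 not called, beside 27.5% of all genes lower and 27.4% higher, and the median log2 difference was -0.73 over members and -0.023 over all genes. Ctsh had 22.2, 26.6 and 22.0 CPM with D-gel@GSNP, against 124, 115 and 119.5 CPM in PBS, 5.05-fold lower. Ctsd was 4.01-fold lower, Gpnmb 3.42-fold lower, Tpp1 3.05-fold lower, Gabarapl1 2.51-fold lower, Ctsa 2.36-fold lower, Npc2 2.27-fold lower and Naglu 2.06-fold lower. Sqstm1 had 317, 293 and 289 CPM with D-gel@GSNP, against 619, 644 and 653 CPM in PBS, and Map1lc3b had 146, 145 and 136 CPM with D-gel@GSNP, against 315, 295 and 274 CPM in PBS. Neither gene had overlapping groups, and Mitf was also lower, at 0.931, 1.27 and 1.59 CPM in D-gel@GSNP against 2.33, 2.44 and 2.63 CPM in PBS.

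The 3 members higher in D-gel@GSNP than in PBS were Tfeb, Tfe3 and Gusb. Tfeb had 21.3, 22.1 and 21.3 CPM with D-gel@GSNP, against 11.6, 11.6 and 11.8 CPM in PBS, 1.85-fold higher (edgeR adjusted p = 2.8e-09). Tfe3 was 1.31-fold higher and Gusb 1.22-fold higher, each with no overlap between the groups. The members not called were Npc1, the mannosidase gene Man2b1, Ctsz and Gaa, with log2 differences of -0.19, -0.17, -0.053 and 0.097. By role, 7 of 8 proteases, 10 of 13 other hydrolases, 9 of 10 activators and membrane proteins and all 3 proton pump genes were lower.

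Against non-SP, no member was called in D-gel@GSNP, in either direction, by edgeR or by DESeq2. In this comparison 0.417% of all genes were called (0.103% higher and 0.314% lower). At an unadjusted p under 0.05, 6 of 40 members passed, beside 9.04% of all genes. The members' log2 differences ran from -0.29 for Idua, an iduronidase of low abundance, to 0.20 for Gabarapl1, and 33 were above 0 and 7 below. Their median was 0.071, beside 0.027 over all genes, and the share of all genes above 0 was not counted. The 95% intervals of 38 of the 40 members lay within -0.5 to 0.5. Gabarapl1 had 69.3, 65.1 and 70.9 CPM with D-gel@GSNP, against 59.2, 58.4 and 61.0 CPM in non-SP, without overlap, and its adjusted p was 0.15 in edgeR. Tfeb had 21.3, 22.1 and 21.3 CPM with D-gel@GSNP and 21.3, 20.0 and 22.3 CPM in non-SP, a difference of 0.026 ± 0.077 on the log2 scale. The intervals for Sqstm1 and Map1lc3b were -0.018 to 0.16 and -0.11 to 0.12. Mitf, at low counts, had 0.931, 1.27 and 1.59 CPM with D-gel@GSNP and 1.39, 1.28 and 0.896 CPM in non-SP, and its interval of -0.39 to 0.57 leaves a sizeable difference in either direction undetectable at this depth. Tfe3 differed by 0.061 ± 0.076. The libraries labelled as treated with D-gel@GSNP thus stood close to the untreated ones, the origin of the material could not be checked further from the counts, and this limit holds for each comparison with D-gel@GSNP.

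L-gel@GSNP cells, in the gel of the other handedness by label, had most hydrolases and membrane genes lower than in PBS, while the 3 autophagy genes of the set differed little from PBS. Of the 40 tested members 28 were lower, 2 higher and 10 not called, beside 24.1% of all genes lower and 21.5% higher. The median log2 difference was -0.38 over members and 0.0011 over all genes. Gpnmb had 115, 129 and 131 CPM with L-gel@GSNP, against 789, 848 and 786 CPM in PBS. Every L-gel@GSNP library was far below every PBS library, a log2 difference of -2.69 ± 0.065 (6.47-fold lower, edgeR adjusted p = 7.6e-18).

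The next members in size were Gusb, the sialidase gene Neu1 and Hexa, a subunit of beta-hexosaminidase, at 2.18-fold lower, 2.16-fold lower and 2.11-fold lower. Gusb had 34.2, 38.5 and 31.6 CPM with L-gel@GSNP, against 76.3, 74.0 and 76.7 CPM in PBS, and Neu1 had 22.0, 23.8 and 26.7 CPM with L-gel@GSNP, against 52.2, 52.7 and 52.1 CPM in PBS. Lamp1 had 451, 460.0 and 458 CPM with L-gel@GSNP, against 862, 857 and 818 CPM in PBS. In none of these genes did the groups overlap. The proton pump gene Atp6v0d1 was 2.00-fold lower, Atp6ap1 1.96-fold lower, Tpp1 1.87-fold lower, Man2b1 1.80-fold lower and Ctsa 1.75-fold lower.

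Ctsh, which differed most between PBS and non-SP, had 125, 134 and 110.1 CPM with L-gel@GSNP and 124, 115 and 119.5 CPM in PBS, and was not called (log2 0.040, interval -0.11 to 0.19). Sqstm1 had 594, 594 and 598 CPM with L-gel@GSNP, against 619, 644 and 653 CPM in PBS, without overlap, but was not called in edgeR (adjusted p = 0.063) and was called in DESeq2 (adjusted p = 0.043). The other members not called were Naglu, Glb1, Mitf, Lgmn, Ids, Gaa, Npc1 and Idua, with log2 differences from -0.18 to 0.25. Glb1 encodes lysosomal beta-galactosidase, Lgmn the endopeptidase legumain and Ids iduronate sulfatase. Mitf had 2.55, 3.43 and 2.61 CPM with L-gel@GSNP and 2.33, 2.44 and 2.63 CPM in PBS, and the groups overlapped.

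The 2 members higher in L-gel@GSNP than in PBS were Gabarapl1 and Tfe3, and neither call was stable. Gabarapl1 had 192, 191 and 194 CPM with L-gel@GSNP, against 170.0, 162 and 184 CPM in PBS, 1.12-fold higher, and lost its call without PBS replicate 2 (log2 0.12, edgeR adjusted p = 0.113). Tfe3 had 43.3, 44.3 and 53.0 CPM with L-gel@GSNP and 35.5, 42.2 and 43.2 CPM in PBS, and lost its call without L-gel@GSNP replicate 3 (log2 0.13, edgeR adjusted p = 0.16) or PBS replicate 1 (log2 0.15, edgeR adjusted p = 0.12). Map1lc3b had 271, 252 and 280.2 CPM with L-gel@GSNP and 315, 295 and 274 CPM in PBS, and its call as lower (log2 -0.14) was lost without L-gel@GSNP replicate 1 or 2 or PBS replicate 1 or 2, at log2 differences of -0.13, -0.086, -0.076 and -0.14. Tfeb had 9.68, 10.2 and 9.10 CPM with L-gel@GSNP, against 11.6, 11.6 and 11.8 CPM in PBS, 1.21-fold lower, which did not pass without L-gel@GSNP replicate 3 (log2 -0.22, edgeR adjusted p = 0.056). Sgsh, a sulfatase of heparan sulfate breakdown, was called as lower (log2 -0.34) but not without L-gel@GSNP replicate 1 (log2 -0.30, edgeR adjusted p = 0.051) or 2 (log2 -0.30, edgeR adjusted p = 0.052). With upper-quartile scaling, 57.1% of all called genes were higher in this comparison, against 47.1% with TMM, and the members were 27 lower and 4 higher.

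D-gel@NP cells, in the gel with NP in place of GSNP by label, had the fewest called members against PBS among the 3 gel groups. Of the members 23 were lower, 4 higher and 13 not called, beside 16.3% of all genes lower and 14.2% higher, and the median log2 difference was -0.22 over members and -0.0046 over all genes. Gpnmb had 418, 456 and 392 CPM with D-gel@NP, against 789, 848 and 786 CPM in PBS, 1.91-fold lower. Gusb had 45.3, 45.4 and 43.0 CPM with D-gel@NP, against 76.3, 74.0 and 76.7 CPM in PBS, and Lipa, the acid lipase that releases cholesterol and fatty acids, had 19.4, 21.5 and 22.6 CPM with D-gel@NP, against 33.9, 32.9 and 30.1 CPM in PBS. None of these groups overlapped. The other large ones were Atp6v0d1, Hexa, Atp6ap1, Neu1, Ctsz, Man2b1 and Ctsa, between 1.46-fold lower and 1.33-fold lower.

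The 4 members higher in D-gel@NP than in PBS were Ctsh, Sqstm1, Gabarapl1 and Glb1. Among 40 tested members this count was not above the background of 14.2% of all genes. Sqstm1 had 804, 767 and 813 CPM with D-gel@NP, against 619, 644 and 653 CPM in PBS, 1.24-fold higher (edgeR adjusted p = 1.1e-05). Ctsh had 139, 151 and 158 CPM with D-gel@NP, against 124, 115 and 119.5 CPM in PBS, and Gabarapl1 had 189, 207 and 212 CPM with D-gel@NP, against 170.0, 162 and 184 CPM in PBS. Each D-gel@NP library of these 3 genes lay above each PBS library. Glb1, at 49.4 ± 2.66 CPM with D-gel@NP and 42.8 ± 2.78 CPM in PBS, lost its call without D-gel@NP replicate 1 (log2 0.18, edgeR adjusted p = 0.058) or PBS replicate 2 (log2 0.16, edgeR adjusted p = 0.11).

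The 13 members not called in D-gel@NP against PBS were Idua, Sgsh, Psap, Naglu, Scarb2, Grn, Atp6v1h, Npc1, Map1lc3b, Lamp2, Tfe3, Gaa and Mitf, with log2 differences from -0.25 to 0.48. Map1lc3b had 309, 293 and 290.3 CPM with D-gel@NP and 315, 295 and 274 CPM in PBS, with an interval of -0.100 to 0.13. Mitf had 2.98, 3.67 and 3.60 CPM in D-gel@NP, above the 2.33, 2.44 and 2.63 CPM of the PBS libraries in each case, with an edgeR adjusted p of 0.091. Tfe3 had 44.8, 43.0 and 43.2 CPM with D-gel@NP and 35.5, 42.2 and 43.2 CPM in PBS, which overlapped. Tfeb had 9.66, 10.3 and 9.75 CPM with D-gel@NP, against 11.6, 11.6 and 11.8 CPM in PBS, and was called as lower (log2 -0.24, edgeR adjusted p = 0.037), but not without any of the 6 libraries in turn, with log2 differences of -0.26 to -0.21. Ids, Lgmn and Ppt1 were likewise called with all libraries and not when some were left out: Ids without D-gel@NP replicate 2 or 3 or PBS replicate 2 or 3, Ppt1 without D-gel@NP replicate 2 or 3 or any PBS replicate, and Lgmn without any D-gel@NP replicate or PBS replicate 1 or 2. With upper-quartile scaling, 57.2% of all called genes were higher, against 46.5% with TMM, and the members were 19 lower and 4 higher.

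**Figure D3:**
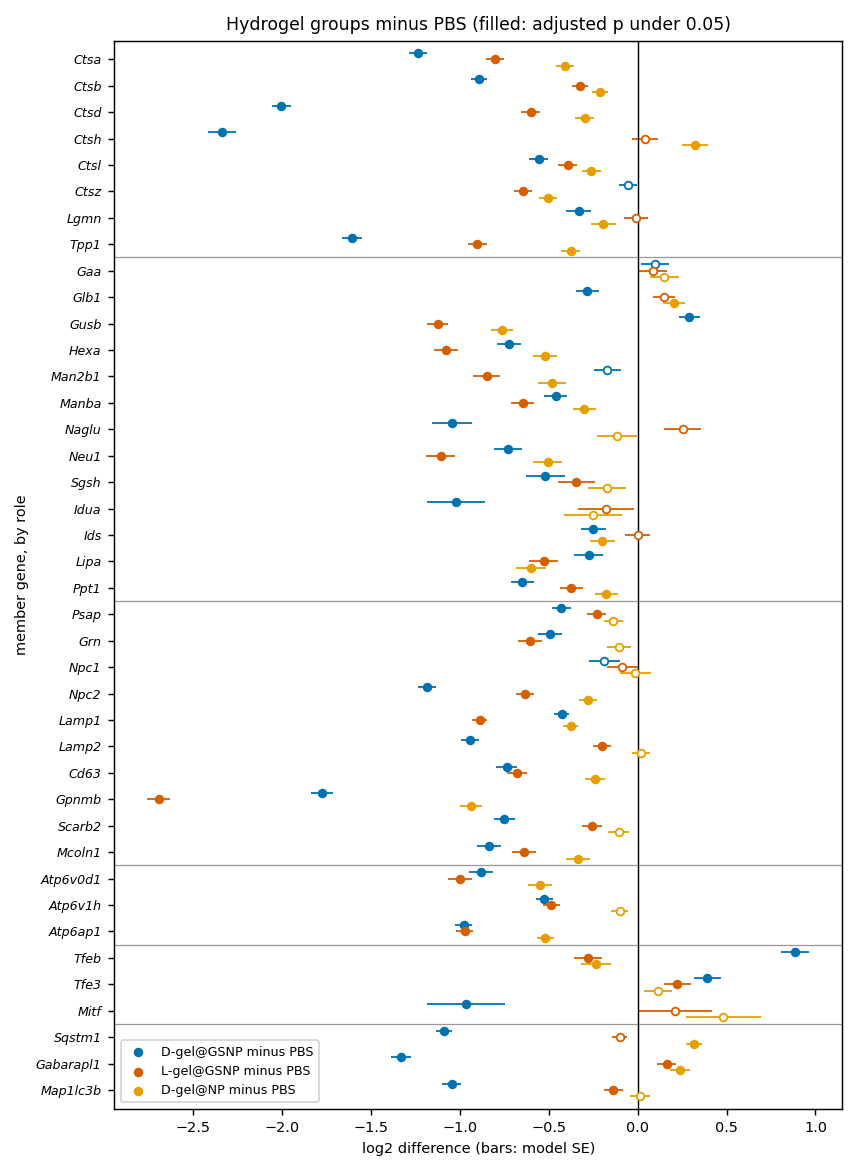
Log2 difference from PBS (horizontal axis) of the 40 tested members (rows, by role) for the 3 gel groups (colours), with model SE as bars and filled points where the edgeR adjusted p was under 0.05. D-gel@GSNP lies farthest to the left for the autophagy genes and for every protease but Ctsz, L-gel@GSNP for Gpnmb, Gusb, Hexa and Neu1, and all 3 groups share the PBS libraries.

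D-gel@GSNP and L-gel@GSNP, which share cells, cytokines and ice step and differ by label in the handedness of the gel, differed in most members. In D-gel@GSNP 21 members were lower, 10 higher and 9 not called, beside 31.3% of all genes lower and 30.5% higher, so the count of higher members was near the background. The median log2 difference was -0.19 over members and -0.039 over all genes. Ctsh had 22.2, 26.6 and 22.0 CPM with D-gel@GSNP, against 125, 134 and 110.1 CPM in L-gel@GSNP, 5.20-fold lower. Gabarapl1 had 69.3, 65.1 and 70.9 CPM with D-gel@GSNP, against 192, 191 and 194 CPM in L-gel@GSNP, 2.81-fold lower. All 3 autophagy genes and 7 of 8 proteases were lower in D-gel@GSNP, with Sqstm1 1.99-fold lower, Map1lc3b 1.88-fold lower and Ctsd 2.64-fold lower. Naglu, Mitf, Idua, Lamp2 and Tpp1 followed, between 2.45-fold lower and 1.63-fold lower.

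Higher in D-gel@GSNP than in L-gel@GSNP were Gusb (2.67-fold higher), Tfeb (2.24-fold higher), Gpnmb (1.89-fold higher), Man2b1, Ctsz, Lamp1, Neu1, Hexa, Lipa and Manba, a beta-mannosidase gene. Tfeb had 21.3, 22.1 and 21.3 CPM with D-gel@GSNP, against 9.68, 10.2 and 9.10 CPM in L-gel@GSNP, and Gpnmb had 253, 224 and 230.3 CPM with D-gel@GSNP, against 115, 129 and 131 CPM in L-gel@GSNP. Both genes were clearly apart between the groups. The 2 smallest of these calls were lost in turn: Manba without L-gel@GSNP replicate 2 or 3 (log2 0.15 in each case) and Lipa without L-gel@GSNP replicate 1 (log2 0.20). Of the lower calls, Mcoln1 was lost without L-gel@GSNP replicate 3 (log2 -0.16) and Ctsl, an endopeptidase gene, without L-gel@GSNP replicate 1 (log2 -0.13). The members not called were Sgsh, Npc1, Cd63, Atp6v1h, Atp6ap1, Gaa, Grn, Atp6v0d1 and Tfe3, so none of the 3 proton pump genes passed, with log2 differences of -0.040, -0.0065 and 0.12. Tfe3 had 54.2, 54.1 and 50.3 CPM with D-gel@GSNP and 43.3, 44.3 and 53.0 CPM in L-gel@GSNP, and it passed when D-gel@GSNP replicate 3 (log2 0.21, edgeR adjusted p = 0.044) or L-gel@GSNP replicate 3 (log2 0.26, edgeR adjusted p = 0.0037) was left out. Upper-quartile scaling shifted the median of all genes to -0.18, with 38.1% of calls higher against 49.4% with TMM, and gave 26 members lower and 8 higher, with a members' median of -0.33.

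Between D-gel@GSNP and D-gel@NP, 29 members were lower in D-gel@GSNP, 6 higher and 5 not called, beside 29.6% of all genes lower and 28.8% higher. The median log2 difference was -0.44 over members and -0.037 over all genes. Ctsh had 22.2, 26.6 and 22.0 CPM with D-gel@GSNP, against 139, 151 and 158 CPM in D-gel@NP, 6.32-fold lower. Sqstm1 had 317, 293 and 289 CPM with D-gel@GSNP, against 804, 767 and 813 CPM in D-gel@NP, 2.65-fold lower. The groups were far apart for both genes, and Ctsd (3.26-fold lower), Gabarapl1 (2.96-fold lower), Mitf (2.72-fold lower), Tpp1 (2.35-fold lower) and Map1lc3b (2.08-fold lower) showed the same direction. Lamp2 (1.95-fold lower), Naglu (1.90-fold lower) and Npc2 (1.87-fold lower) were lower as well. Of the lower calls, 4 were lost when a single library was left out: Manba without any D-gel@GSNP replicate or D-gel@NP replicate 2 or 3, Hexa without D-gel@GSNP replicate 3 or D-gel@NP replicate 1 or 2, Neu1 without D-gel@GSNP replicate 3 or D-gel@NP replicate 2 or 3, and Sgsh without D-gel@GSNP replicate 3. Their log2 differences in those fits were -0.28 for Sgsh and -0.19 to -0.15 for the others. The 6 higher members were Tfeb (2.18-fold higher), Gusb (2.08-fold higher), Ctsz, Lipa, Man2b1 and Tfe3, and Tfe3 was not called with upper-quartile scaling (log2 0.16). Npc1, Lgmn, Gaa, Ids and Lamp1 were not called, with log2 differences from -0.17 to -0.049. Upper-quartile scaling shifted the median of all genes to -0.16, with 38.6% of calls higher against 49.3% with TMM, and gave 33 members lower and 5 higher.

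2 further comparisons were added after the data had been seen, to place L-gel@GSNP. Against non-SP, L-gel@GSNP had 22 members higher, 10 lower and 8 not called, beside 30.6% of all genes higher and 29.2% lower, with a median log2 difference of 0.26 over members and 0.041 over all genes. The called members lay on both sides of non-SP, but the count of lower members was near the background. Ctsh (5.01-fold higher), Gabarapl1 (3.23-fold higher), Ctsd (2.72-fold higher), Naglu (2.54-fold higher), Mitf (2.40-fold higher), Sqstm1 (2.09-fold higher) and Map1lc3b (1.89-fold higher) were above non-SP, as were Tpp1 (1.67-fold higher), Ctsb (1.60-fold higher) and Lamp2 (1.57-fold higher). Npc1, also called as higher, lost its call without L-gel@GSNP replicate 3 or non-SP replicate 2 or 3, at log2 differences of 0.099, 0.21 and 0.20. Gusb (2.49-fold lower), Tfeb (2.20-fold lower), Gpnmb (1.78-fold lower), Man2b1, Ctsz, Neu1, Lamp1 and Hexa were below the level of non-SP as well as that of PBS. Manba and Lipa completed the lower calls, and Manba lost its call without L-gel@GSNP replicate 2 or 3 or non-SP replicate 1 or 3 and Lipa without L-gel@GSNP replicate 1 or 2 or non-SP replicate 3. The members not called were Tfe3, Atp6v0d1, Grn, Atp6v1h, Cd63, Atp6ap1, Gaa and Sgsh, with log2 differences from -0.11 to 0.15, and Tfe3 passed as lower without L-gel@GSNP replicate 3 (log2 -0.20, edgeR adjusted p = 0.023). Upper-quartile scaling shifted the median of all genes to 0.16, gave 27 members higher and 8 lower and turned the uncalled difference of Tfe3 to 0.012.

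Against D-gel@NP, L-gel@GSNP had 21 members lower, 1 higher and 18 not called, beside 11.1% of all genes lower and 8.33% higher, with a median log2 difference of -0.24 over members and -0.0062 over all genes. Gpnmb was again the farthest apart, with 115, 129 and 131 CPM with L-gel@GSNP, against 418, 456 and 392 CPM in D-gel@NP, 3.38-fold lower. Neu1 (1.52-fold lower), Hexa (1.47-fold lower), Tpp1 (1.44-fold lower), Lamp1 (1.43-fold lower) and Grn, which encodes progranulin (1.41-fold lower), followed, and Atp6ap1, Atp6v0d1, Cd63 and Sqstm1 were 1.37-fold lower, 1.37-fold lower, 1.36-fold lower and 1.34-fold lower. Tfeb, Tfe3, Mitf, Gabarapl1 and Map1lc3b were not called, at log2 differences of -0.044, 0.11, -0.27, -0.074 and -0.15, and Map1lc3b passed when L-gel@GSNP replicate 3 was left out (log2 -0.18, edgeR adjusted p = 0.033). The higher member was Naglu (1.29-fold higher), whose call was lost without L-gel@GSNP replicate 2 or D-gel@NP replicate 2 or 3, at log2 differences of 0.36, 0.31 and 0.34. The lower call of Ctsh was lost without L-gel@GSNP replicate 3 (log2 -0.21) or D-gel@NP replicate 3 (log2 -0.24), and that of Ppt1 without L-gel@GSNP replicate 2 or 3 or D-gel@NP replicate 1 or 3.

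**Figure D4:**
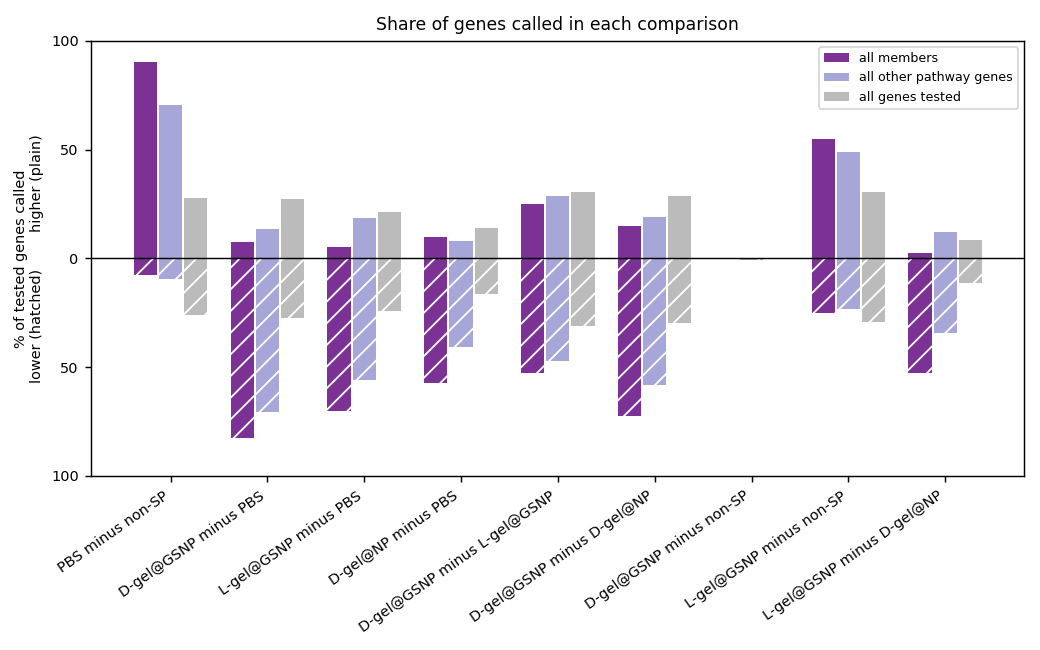
Share of genes called higher (plain bars, upward) and lower (hatched bars, downward) in each of the 9 comparisons, in percent of the 40 tested members, of 125 other tested pathway genes and of all 17497 genes tested. Members lean to 1 direction in the comparisons with PBS, where all genes split about evenly, and D-gel@GSNP minus non-SP shows almost no calls.

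Other genes of the pathway, from lists of 134 genes of which 132 were in the table and 125 were tested, leaned the same way as the members. In PBS against non-SP 88 were higher and 12 lower, beside 27.6% and 26.1% of all genes. In D-gel@GSNP against PBS 17 were higher and 88 lower, beside 27.4% and 27.5%. L-gel@GSNP against PBS had 23 higher and 70 lower, beside 21.5% and 24.1%, so the 23 higher were near the background. D-gel@NP against PBS had 10 higher and 51 lower, beside 14.2% and 16.3%. The median log2 differences of these pathway genes were 0.44, -0.43, -0.27 and -0.16 in the same order. Cd68, a lysosomal membrane glycoprotein that also serves as a macrophage marker, was 6.51-fold higher in PBS, at 42.4 ± 5.79 CPM against 6.51 ± 0.572 CPM in non-SP. Dpp7, a dipeptidyl peptidase gene, was at 13.9 ± 0.662 CPM with L-gel@GSNP, against 48.1 ± 3.90 CPM in PBS. It was at 15.2 ± 0.588 CPM with D-gel@GSNP, 30.4 ± 2.38 CPM with D-gel@NP and 14.6 ± 1.50 CPM in non-SP. The cystine exporter gene Ctns was at 60.9 ± 4.87 CPM with D-gel@GSNP, against 163 ± 6.04 CPM in PBS.

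Most proton pump genes were lower in each gel group than in PBS. Of 15 other tested subunit genes, 13 were lower and none higher in D-gel@GSNP, beside 27.5% of all genes lower and 27.4% higher. In L-gel@GSNP 14 were lower and 1 higher, beside 24.1% and 21.5% of all genes. In D-gel@NP 13 were lower and 1 higher, beside 16.3% and 14.2%. Atp6ap2, the prorenin receptor gene, was 2.13-fold lower with D-gel@GSNP, 2.32-fold lower with L-gel@GSNP and 1.38-fold lower with D-gel@NP, and Atp6v1d was 1.92-fold lower in L-gel@GSNP.

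Of 35 other autophagy genes tested, 4 were higher and 22 lower in D-gel@GSNP against PBS, where 27.4% of all genes were higher and 27.5% lower. In L-gel@GSNP 14 were higher and 8 lower, beside 21.5% and 24.1% of all genes, and in D-gel@NP 7 were higher and 3 lower, beside 14.2% and 16.3%, so the 8 lower and the 7 higher were near the background. Bnip3, which encodes a receptor for the removal of mitochondria, averaged 116 ± 40.0 CPM with L-gel@GSNP, against 17.9 ± 0.519 CPM in PBS, 6.52-fold higher, with a wide spread among the L-gel@GSNP libraries. Calcoco1, an autophagy receptor gene, was at 27.7 ± 1.28 CPM with D-gel@GSNP, against 114 ± 9.12 CPM in L-gel@GSNP, 4.10-fold lower. Pink1, a kinase that marks damaged mitochondria, was 2.77-fold lower in D-gel@GSNP against L-gel@GSNP.

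In the list of lysosomal nutrient signalling, Flcn stood out. Flcn, which encodes folliculin, part of the complex that lets TFEB and TFE3 be phosphorylated, was at 27.2 ± 0.194 CPM with L-gel@GSNP, against 84.1 ± 2.86 CPM in PBS, 3.08-fold lower, and 1.93-fold lower against non-SP. Its partner genes Fnip1 and Rragc were 1.83-fold lower and 1.67-fold lower in L-gel@GSNP against PBS. The other gels shared part of this. Against PBS, Flcn was 1.57-fold lower in D-gel@GSNP and 1.41-fold lower in D-gel@NP, and Fnip1 1.82-fold lower in D-gel@GSNP. Of the 19 tested genes of this list, 13 were lower and 2 higher in L-gel@GSNP against PBS. In D-gel@GSNP 11 were lower and 7 higher, and in D-gel@NP 9 were lower and 2 higher, each against PBS. Beside them, 24.1% of all genes were lower and 21.5% higher in L-gel@GSNP. The shares were 27.5% and 27.4% in D-gel@GSNP and 16.3% and 14.2% in D-gel@NP, so the 2 higher in D-gel@NP were near the background. Zkscan3, described as a repressor of autophagy genes, was the 1 pathway gene called between D-gel@GSNP and non-SP, at 43.9 ± 2.83 CPM with D-gel@GSNP and 53.7 ± 1.83 CPM in non-SP. That call was lost in turn without D-gel@GSNP replicate 1 or 2 or any non-SP replicate, at log2 differences of -0.32 to -0.24.

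Both Gnptab and Nagpa, which tag hydrolases for delivery to the lysosome, were higher in D-gel@GSNP than in L-gel@GSNP. Gnptab, which starts the mannose phosphate tag, was at 49.1 ± 2.50 CPM with D-gel@GSNP, against 15.4 ± 1.33 CPM in L-gel@GSNP, and Nagpa, which uncovers the tag, was at 22.7 ± 0.689 CPM with D-gel@GSNP, against 10.3 ± 0.753 CPM in L-gel@GSNP. Igf2r, a receptor for the tag, was higher in L-gel@GSNP than in PBS, at 31.2 ± 1.82 CPM in L-gel@GSNP against 13.3 ± 1.50 CPM in PBS.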

How the data were processed

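The authors deposited whole-number read counts per gene and, per the submitters' processing notes, used fastp 0.22.0, HISAT2 2.1.0, featureCounts and DESeq2 on GRCm39. Annotation release, strand and multi-mapping settings are not given in the sources used here. The deposited FPKM values equal the count divided by gene length and library total, within a relative tolerance of 0.0001, for all 34259 genes. Symbols were matched by identifier to a GENCODE annotation of an earlier build (1825 identifiers unmatched), so no coordinates were taken from it, and the only coordinates printed are those of the promoter stretches, from the RefSeq table on GRCm38.p6. Among counts of 1 to 20, 62.3% to 66.4% per library were even, and the cause was not tested.

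The counts were fitted with edgeR 4.0.16 (R 4.3.3): filterByExpr by group (17497 genes), TMM factors and a quasi-likelihood model over all 15 libraries with a mean per group (biological coefficient of variation 8.06%). The threshold for a call was 0.05 on p-values adjusted by Benjamini-Hochberg over all genes of a comparison, two-sided. In simulated counts for D-gel@GSNP minus PBS over 16918 genes, 51% of 96 genes changed 1.5-fold and 61.2% of 98 genes changed 2-fold were recovered. The simulation changed 200 genes drawn from all levels of abundance. In the data 4802 genes were called higher and 4819 lower in this comparison. Because of this difference, the recovered shares do not give the share of changed members that the test would miss. Alternatives were other scaling (RLE, upper quartile), other filters on low counts, a replicate block, the 6 libraries alone, each library left out, DESeq2 1.42.0, and limma 3.58.1 on log2(FPKM + 1) or log2(FPKM + 0.1). Intervals cover the model's spread only.

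The members and gene lists were chosen with earlier results of these data known. The rule for named genes allowed values, per comparison, for the called members with the 10 largest log2 differences in each direction, for Tfeb, Tfe3, Mitf, Sqstm1, Gabarapl1 and Map1lc3b, for members not called or moving against the majority, and for up to 3 called genes per other list with at least 5 CPM. Other members are named where leaving out 1 library ended their call, which was chosen after their values were seen.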

Additional observations from a re-analysis of the deposited data

How the results depend on the processing

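Counts of called members kept within 1.5 times of their value under every alternative run, except 2 small counts. Members higher in L-gel@GSNP than in PBS were 2, but 4 with upper-quartile factors, with a filter that needed 1 CPM in 3 libraries and with limma on log2(FPKM + 1) or log2(FPKM + 0.1), 1 with only the 6 libraries compared, and 1 to 3 with each library left out. Members higher in L-gel@GSNP than in D-gel@NP were 1, but 3 with upper-quartile factors and with the filter of at least 1 CPM, 2 without a filter, with DESeq2 and with limma on log2(FPKM + 1) or log2(FPKM + 0.1), and 0 to 1 with each library left out. The fit with a replicate block gave 2 there and moved no other count of members past 1.5 times. Deviations of same-numbered libraries correlated at -0.0217 to 0.0448, so the numbers were not taken to pair libraries.

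Single genes were followed here where called with all libraries, as members or as other pathway genes allowed values. Tfeb, Tfe3, Mitf, Sqstm1, Gabarapl1 and Map1lc3b were followed in every comparison, called or not. Among the followed genes, signs changed only for differences near 0 that were not called. Other uncalled members were not checked for a change of sign. In D-gel@GSNP minus non-SP, Map1lc3b was -0.017 with upper-quartile factors, -0.0048 with the 1 CPM filter, -0.019 with the 6 libraries alone, -0.028 with limma on log2(FPKM + 1) with or without a filter, -0.030 with log2(FPKM + 0.1), and -0.016 to 0.040 with each library left out. Tfeb there was -0.0010 with the 6 libraries alone, -0.0086 with limma on log2(FPKM + 1) with or without a filter, -0.011 with log2(FPKM + 0.1) and -0.012 to 0.063 with each library left out, and Mitf was -0.098 to 0.26 with each library left out. Map1lc3b in D-gel@NP minus PBS was -0.037 to 0.074 with each library left out, Tfe3 in L-gel@GSNP minus non-SP was 0.012 with upper-quartile factors, and Tfeb in L-gel@GSNP minus D-gel@NP was -0.085 to 0.0007 with each library left out. The cause was not tested. Of 2418 values of the followed genes with a library left out, 2330 kept direction and call, 75 lost the call, 4 gained it and 9 changed sign. Of 4030 under the other alternatives, 3949 kept both, 67 lost the call, 3 gained it and 11 changed sign. Calls gained by other uncalled members are not among these. With a library left out, members lower in D-gel@GSNP than in PBS numbered 33 to 35, against 33 with all libraries. Members higher in D-gel@GSNP than in L-gel@GSNP numbered 9 to 12, against 10. Members lower in D-gel@NP than in PBS numbered 19 to 21, against 23.

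Over all genes, the count called between D-gel@GSNP and non-SP (18 higher, 55 lower) was unstable: 16 and 83 with upper-quartile factors, 72 and 167 without a filter, 11 and 23 with the replicate block, 69 and 213 with the 6 libraries alone, 44 and 151 with DESeq2, 4 and 21, 5 and 31 or 5 and 6 with limma on log2(FPKM + 1), log2(FPKM + 0.1) or log2(FPKM + 1) without a filter, 21 and 119 without D-gel@GSNP replicate 3, and at most 5 and 7 without any other of the 6 libraries. Genes lower in L-gel@GSNP than in D-gel@NP were 1948, and 1298 with the 6 libraries alone. Mitf, Idua and Naglu had few counts, which limits their precision.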

Other observations

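Among genes of the pathway not described above, Cst3, Ctso and Gm2a differed between gel groups, and Cstb and Gla between gel groups and PBS. Cst3, which encodes the secreted cathepsin inhibitor cystatin C, was at 141 ± 0.840 CPM with D-gel@GSNP, against 231 ± 3.88 CPM in L-gel@GSNP, 1.64-fold lower, and at 237 ± 13.5 CPM in PBS cells, against 137 ± 2.59 CPM in non-SP. Cstb, the intracellular inhibitor cystatin B, was 1.82-fold lower in L-gel@GSNP, 1.55-fold lower in D-gel@GSNP and 1.45-fold lower in D-gel@NP, each against PBS. Ctso, a cysteine protease gene, was at 7.40 ± 0.919 CPM with D-gel@GSNP, against 29.2 ± 2.32 CPM in L-gel@GSNP. Gla, the alpha-galactosidase gene, was at 10.6 ± 0.625 CPM with L-gel@GSNP and 16.6 ± 1.09 CPM with D-gel@NP, against 32.8 ± 3.75 CPM in PBS. Gm2a, the activator of ganglioside breakdown, was higher in L-gel@GSNP than in D-gel@NP, at 83.9 ± 6.26 against 47.5 ± 8.65 CPM.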
